A study of Mus musculus with 4 samples.

Results

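Grb10, Ddc and Plagl1 are imprinted genes, which means that in some tissues only the copy inherited from 1 parent is transcribed. Grb10 and Ddc are neighbours on mouse chromosome 11 and Plagl1 lies on chromosome 10. CTCF binding was described at every summit that lay in the body of 1 of these 3 genes or within 50 kb of it, where a summit is the position of highest signal that a peak is given. The main list held 90278 summits at an IDR of 0.05, and 20 of them met this rule. The IDR, or irreproducible discovery rate, ranks peaks by how well the replicates agree on them. The Grb10-Ddc locus held 15 of them and the Plagl1 locus 5. The genes were chosen by name and not for their signal, though earlier results of these data were known at the time. A summit had to pass the IDR to count, so the 20 were kept for agreement between the replicates, and 19 further ranked peaks of the same windows did not pass.

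The tissue was hippocampus of male B6CASTF1/J mice aged 2 months, offspring of C57BL/6J crossed with CAST/EiJ, and the labels list no treatment and no engineered allele. CTCF-bound DNA of 200 to 600 bp was sequenced (ChIP-seq) in 4 libraries, which form 2 biological replicates of 2 technical libraries, and each replicate is a pool of 7 tissue samples. Both pools carry the same donor entry, so whether they came from separate animals is not stated and the spread between them may be technical. There was 1 condition, so the values below describe sites and set the replicates side by side, and no test between groups was possible. The labels name a possible control experiment, which was not used here. Peak lists hold no expression values, so the tissue label was not checked against marker genes. The peak lists are not split by parent of origin, so each signal covers the maternal and the paternal copy together.

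CTCF is a zinc-finger protein that binds an asymmetric DNA motif, insulates enhancers from promoters and halts cohesin, and loops form most readily between motifs that point towards each other. Its binding is weakened by methylation of CpGs in the motif, and at several imprinted loci it occupies only the unmethylated parental copy. Grb10 encodes an adaptor that dampens insulin and growth factor signalling. It is transcribed from the maternal copy in most tissues and, in neurons, from the paternal copy through a downstream promoter next to a CpG island that is methylated on the maternal copy. Ddc encodes the DOPA decarboxylase that makes dopamine and serotonin. Plagl1, also called Zac1, encodes a zinc-finger transcription factor that restrains cell proliferation and is transcribed from the paternal copy, with a promoter CpG island that is methylated on the maternal copy.

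The sequences at the 9 summits with a signal of 500 or more are given below. They show how far the reference DNA under the strongest summits departed from the CTCF core consensus, a motif of 12 letters. Both strands were searched up to 50 bp from the summit. Each is given over 30 bases, read 5′ to 3′ on the strand that carries the best match, which is in capitals. Coordinates are on mm10. At 7 of the 9 the best match had at most 1 mismatch, which was the limit for counting a match. Of all peaks with a signal of 500 or more, 51.6% of those in CpG islands (stretches rich in CpG) had a match. Of those outside islands, 72.6% did. The count of 7 is given as a description and not as a trait of these sites.
Fignl1 body, chr11:11788585-11788614, minus strand, no mismatch: cttctgttgCCACTAGGGGGCgagcgcctc
Intergenic summit past the 3′ end of Ddc, chr11:11812136-11812165, plus strand, 1 mismatch: gcatcactgCCACCAGAGGTCactgtgctc
Ddc intron 12, chr11:11820396-11820425, plus strand, no mismatch: caagtcttcCCACCAGAGGGCaccaaagat
Grb10 intron 2, first site, chr11:11973598-11973627, minus strand, 1 mismatch: cagggactgCCACCAGGGGTCggcacagcc
Grb10 intron 2, second site, chr11:11975081-11975110, minus strand, 2 mismatches: gtagaaaagACACTAGATGGTgctatgaac
Grb10 internal CpG island, chr11:12025856-12025885, plus strand, 3 mismatches: cagacttcgCCACACGGGGTCgctgcgtgc
Plagl1 upstream flank, first site, chr10:13016709-13016738, plus strand, 1 mismatch: ctgtgttgaCCACTGGAGGGCagtatagga
Plagl1 upstream flank, second site, chr10:13018646-13018675, plus strand, no mismatch: ttcttgtgcCCAGCAGAGGGCgaacggggg
Upstream of the Plagl1 promoter, chr10:13087388-13087417, plus strand, 1 mismatch: cctcaaaggCCACTAGAGGGTgcacgtgat
Weaker summits are shown where a later result turns on them: the summits in Ddc intron 7 and in the Plagl1 coding exon for the direction of their motifs, and the summit at the internal Grb10 start for its place at a promoter.
Ddc intron 7, chr11:11844470-11844499, minus strand, no mismatch: agatgacagCCAGCAGGTGGCccctgccat
Plagl1 coding exon, chr10:13127498-13127527, minus strand, no mismatch: ctgtgtggaCCACCAGGTGGCgacgcacat
Grb10 internal start, chr11:12027948-12027977, plus strand, 2 mismatches: cagacagaaACTGTAGATGGCgataaaaac
Counted from 1 at the 5′ end of the consensus, the first Grb10 intron 2 site and the intergenic site near Ddc carried the same departure, G11T, and the site upstream of the Plagl1 promoter carried C12T.

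Grb10 (ENSMUSG00000020176.17, chr11:11930508-12038683, minus strand) held 6 summits, all of them inside the gene and none in its flanks. They fell into 2 clusters and 1 lone site, all in the first and second introns or at the internal starts. The first cluster lay 10.7 to 14.6 kb from the 5′ end of the gene, around the internal starts. The second lay 63.6 to 65.1 kb from the 5′ end, in intron 2. From there to the 3′ end of Grb10, a stretch of 43.1 kb, no summit was called.

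The strongest Grb10 summit, in intron 2 at position 11973597, had a signal of 755.6, higher than 93.0% of all peaks. Its signal was 371 in replicate 1 and 389 in replicate 2. This signal is a deposited score with no stated scale, and it serves here only to rank and describe peaks within the list. This summit lay 2955 bp upstream of the transcript start at 11970642 and carried the only consensus match among the 6. The second summit of that pair, at 11975096, lay 1499 bp away with 252 in replicate 1 and 305 in replicate 2. Its best 12-letter match had 2 mismatches, so it was counted as a summit without a match.

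The summit in the internal CpG island of Grb10, at 12025866, had a signal of 596 (percentile 82.0 of all peaks). Its signal was 294 in replicate 1 and 302 in replicate 2. A CpG island is a stretch rich in G, C and CpG, and this one ran over 1313 bp (chr11:12025411-12026723) with 64.4% G+C and an observed over expected CpG ratio of 1.07. In the basic annotation the summit lay in intron 1 of Grb10, and in the comprehensive annotation it also lay in exon 1, in the 5′ untranslated region of Grb10-209, 458 bp downstream of that start. The whole island held no 12-letter stretch with fewer than 2 mismatches to the consensus, and the best one at the summit held 1 CpG. Over all peaks, summits in CpG islands had a match less often, 23.5% against 54.3% of the others. Among peaks with a signal of 500 or more the shares were 51.6% and 72.6%. The consensus allows no CpG, so each CpG inside a 12-letter stretch costs at least 1 mismatch. How far this lowered the shares in islands was not tested, and a summit without a match may still hold a form of the motif.

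The summit at 12027947 was the only one within 1 kb of a Grb10 start in the basic annotation. It lay 24 bp downstream of the start at 12027971 (Grb10-203), in exon 1. Its peak was 136 bp wide against a median of 440 bp over all peaks, and its signal was low, 40.1 in replicate 1 and 57.3 in replicate 2. Between the 2 internal sites the island summit was thus the stronger in both replicates, by far more than the replicates of either differed. The remaining Grb10 summits, at 12005909 and 12024060 in intron 1, had pooled signals of 103 and 61.5.

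The upstream Grb10 start at 12037401 (Grb10-201) had the largest CpG island of both loci, 1799 bp with 69.5% G+C, and no called summit. The nearest called summit lay 9454 bp away. A candidate peak 111 bp downstream of that start had a signal of 24.6, with 15.2 in replicate 1 and 9.49 in replicate 2, and did not pass the IDR of 0.05. The DNA just upstream of both starts is shown because 1 start had a called summit and the other had none. Each stretch covers the 100 bases before the RefSeq start, read 5′ to 3′ on the minus strand, with CpGs in capitals (RefSeq, GRCm38.p6).
Grb10 upstream start, no summit, chr11:12037421-12037520: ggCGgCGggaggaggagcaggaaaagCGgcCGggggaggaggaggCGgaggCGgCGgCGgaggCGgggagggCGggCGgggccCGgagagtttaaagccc
Grb10 internal start, summit, chr11:12027972-12028071: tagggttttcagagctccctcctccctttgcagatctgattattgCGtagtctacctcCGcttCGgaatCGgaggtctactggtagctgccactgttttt
The first holds 12 CpGs and the second 4. Of the RefSeq promoter windows, which run from 250 bases before to 50 after a start, 5 belonged to the 3 genes and only the Grb10 window at the internal start contained a summit. None of the 5 contained a consensus match with at most 1 mismatch, and 4.33% of the 32851 windows of all genes did.

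**Figure D1:**
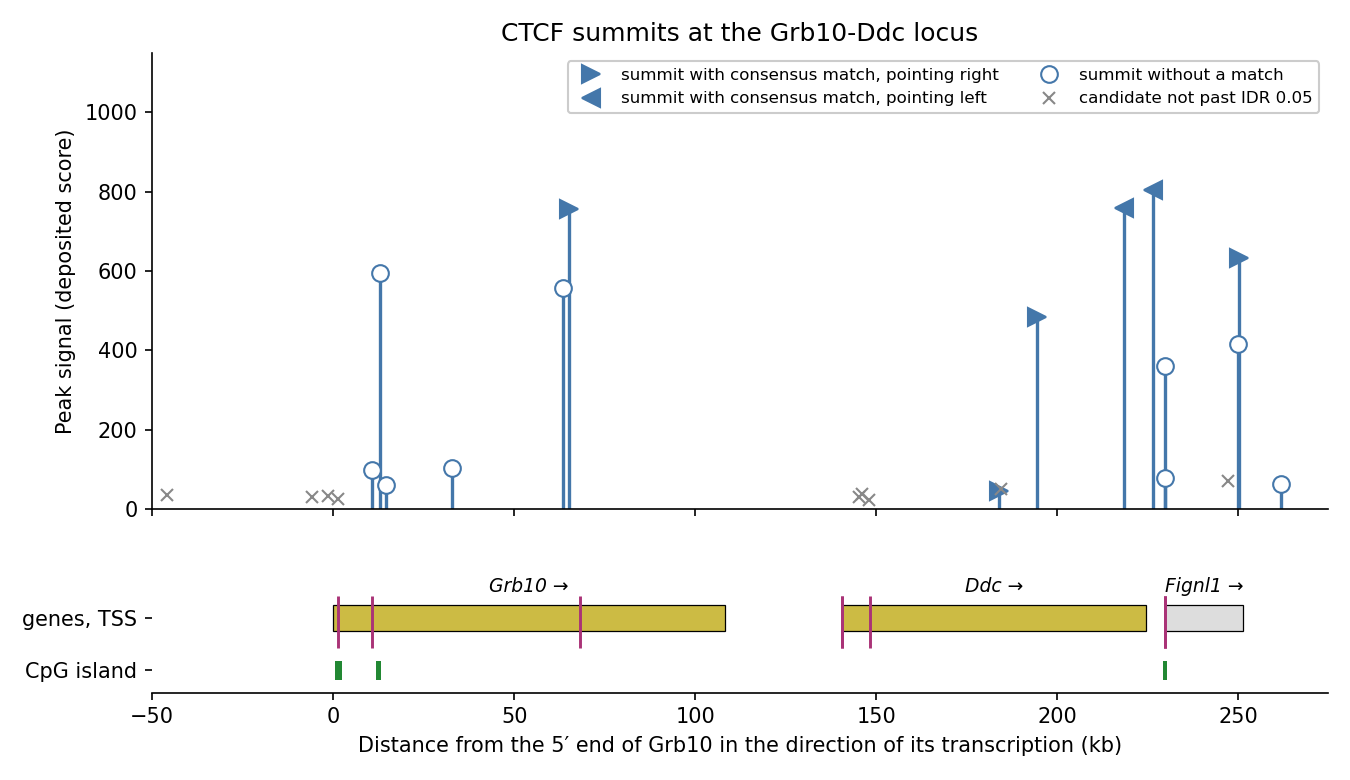
Peak signal (deposited score, y axis) of the 15 called summits at the Grb10-Ddc locus against distance in kb from the 5′ end of Grb10 in the direction of transcription, with genes, basic transcript starts (vertical bars) and CpG islands of at least 500 bp that hold a start drawn below. Triangles are summits with a consensus match and show its direction, open circles are summits without one, and crosses are candidates that did not pass; the region from 65.1 to 184 kb, which holds the Ddc starts, has crosses only.

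Ddc (ENSMUSG00000020182.16, chr11:11814101-11898144, minus strand) held 3 summits in its body and 6 in the 50 kb past its 3′ end, and none in the 50 kb upstream. The 3 body summits lay in introns, 43.4 to 77.7 kb from the 5′ end, and each carried a consensus match. The one in intron 12, at 11820406, had a signal of 374 in replicate 1 and 389 in replicate 2, above 93.3% of all peaks when pooled. The one in intron 7, at 11844445, had 225 in replicate 1 and 259 in replicate 2. The third, in intron 6 at 11854709, was the weakest of the 20, with 21.0 and 24.2. Its motif was nonetheless close to the consensus, with 1 mismatch (Y5A, where Y stands for C or T), so a match did not go with a high signal at every site.

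No summit was called at any Ddc start. The 3 starts of the basic annotation, at 11890408, 11898044 and 11898144, lay 35699 to 43435 bp from the nearest called summit. A candidate 245 bp upstream of the first of these had a signal of 23.4 and did not pass. None of the Ddc starts lay in a CpG island, and the 100 bases upstream of the RefSeq starts held 4 and 1 CpGs.

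The strongest summit of the locus, at 11812153, lay between Ddc and Fignl1. Its signal was 395 in replicate 1 and 413 in replicate 2, and its pooled value of 805 exceeded 96.7% of all peaks. It stood 3191 bp upstream of Fignl1, the gene next to Ddc, which encodes an ATPase of DNA repair. The Fignl1 promoter itself had 2 summits in a 990 bp CpG island. The first, at 11808889, lay 43 bp downstream of a start, with 193 in replicate 1 and 170 in replicate 2. The second, at 11809094, lay 132 bp upstream of another start, with 37.1 and 45.2. Both lacked a match, as did the island summit of Grb10, and all 3 lay in islands that hold a start.

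The other summits past the 3′ end of Ddc lay in or beyond Fignl1. The peak in the body of Fignl1 had 2 summits 203 bp apart. The summit at 11788640 had 292 in replicate 1 and 345 in replicate 2 and an exact match to the consensus. The summit at 11788843 had 198 and 222 and no match within the 50 bp searched. The whole peak held 2 matches, and the other lay outside the 50 bp searched around either summit. The outermost summit, at 11777016, had 26.5 and 35.2.

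Plagl1 (ENSMUSG00000019817.18, chr10:13060504-13131694, plus strand) held 3 summits in its body and 2 in the upstream flank, and all 5 carried a match. The strongest summit of both loci, at 13087394, lay 3394 bp upstream of the nearest Plagl1 start of the basic annotation, inside intron 3 of a longer transcript (Plagl1-225) of the comprehensive annotation. Its signal was 392 in replicate 1 and 449 in replicate 2, and the pooled value of 841 exceeded 98.6% of all peaks. The coding summit, at 13127520, lay in exon 8 of 9 of Plagl1-201 and had 157 in replicate 1 and 158 in replicate 2. The weakest, at 13071228 in intron 1 of Plagl1-225, had 37.4 and 54.2.

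The Plagl1 starts at 13090788, 13090832 and 13090835 lay in a CpG island of 1026 bp (chr10:13090378-13091403, 61.9% G+C). No called summit and no candidate lay in that island, so a signal there was not detectable in these lists. It held no 12-letter stretch with fewer than 2 mismatches to the consensus. The island was flanked instead by the summit at 13087394 on its upstream side and the coding summit at 13127520 on its downstream side, 40126 bp apart. The motifs of these 2 summits pointed towards each other. In the upstream flank a pair of summits lay 11361 and 13317 bp downstream of the start of Sf3b5, a splicing factor gene. The summit at 13016704 had 379 in replicate 1 and 404 in replicate 2. The summit at 13018660 had 330 and 337.

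**Figure D2:**
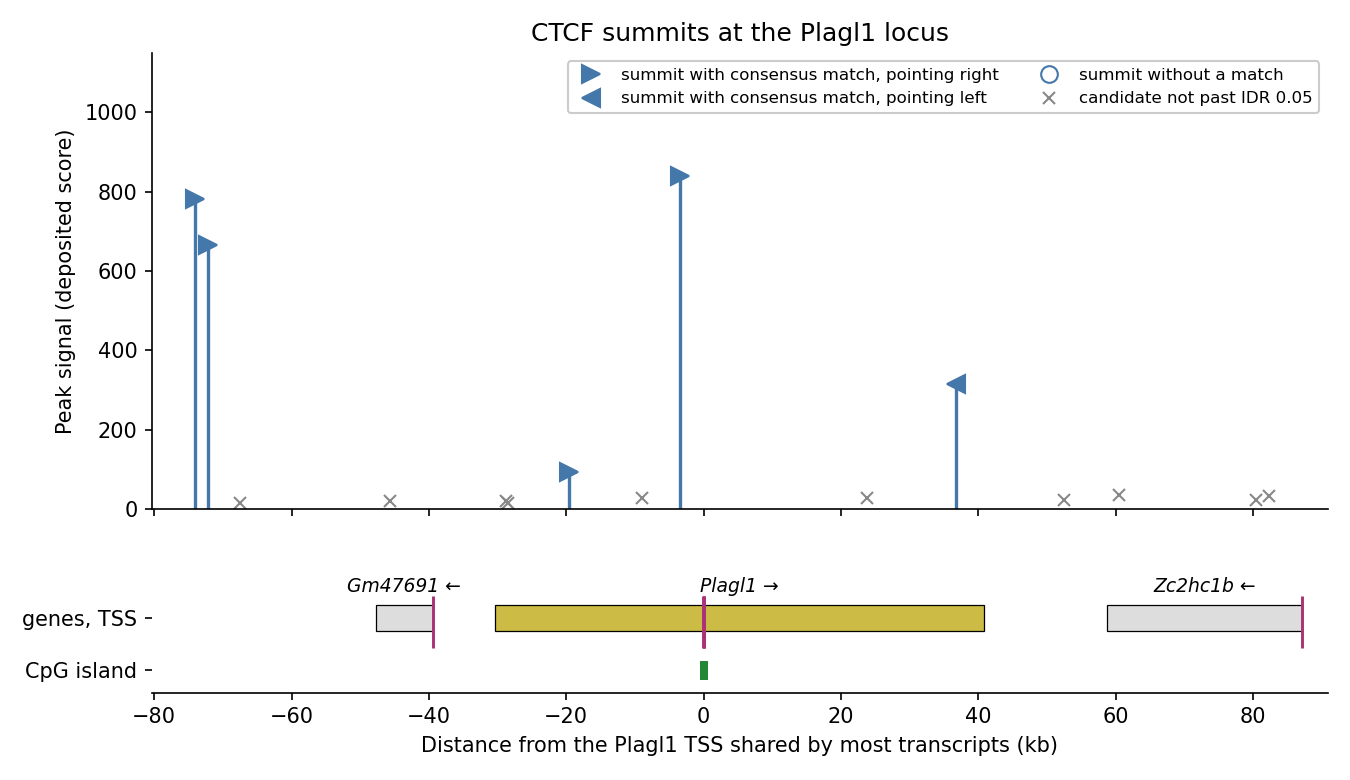
Peak signal (deposited score, y axis) of the 5 called summits at the Plagl1 locus against distance in kb from the Plagl1 start shared by most transcripts (x axis), with genes, starts (vertical bars) and CpG islands below. All 5 summits are triangles, which mark a consensus match and its direction, and the promoter island at 0 carries neither a summit nor a cross, the mark of a candidate that did not pass.

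Of the 3 genes, 1 (Grb10) had a summit within 1 kb of a start in the basic annotation, beside 38% of the 21755 protein-coding genes. In the comprehensive annotation it was again 1 of 3, beside 43.9%, and Grb10 then had 2 such summits because the island summit was within 1 kb of further starts. Among 50 other imprinted genes listed by name, 20 (40%) had one. With 3 genes such a share has little precision, and it is given as a description. Of the further genes with a start in these windows, Fignl1 had a summit at its promoter. The lincRNA Gm47691, Zc2hc1b and the antisense gene 1700042O10Rik, which starts inside Ddc, had none within 1 kb, with the nearest summits 19843, 15211 and 13414 bp away.

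The density of summits in the gene with 50 kb on either side was 2.88 per 100 kb at Grb10, 4.89 at Ddc and 2.92 at Plagl1. The median of protein-coding genes was 6.03 per 100 kb (quartiles 2.87 and 9.72). Grb10 and Plagl1 thus stood near the lower quartile and Ddc between it and the median. Over the whole of chromosomes 1 to 19 and X the density was 3.53 per 100 kb, with Ddc above it and Grb10 and Plagl1 below it. Over gene bodies alone the order changed to 5.55 at Grb10, 4.21 at Plagl1 and 3.57 at Ddc, beside a median of 3.66, because the Grb10 summits are all inside the gene and most of those counted for Ddc are outside it. Of the 50 listed imprinted genes, 39 had a higher density than Grb10, 37 than Plagl1 and 22 than Ddc. The genes closest in density to Grb10 and to Plagl1 were Sgce, Klf14 and Dio3, at 2.89, 2.91 and 2.94. Those closest to Ddc were Nnat, Magel2 and Rasgrf1, at 4.88, 4.78 and 4.61. Cobl, the imprinted neighbour upstream of Grb10 and an actin nucleator, had 2.44.

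**Figure D3:**
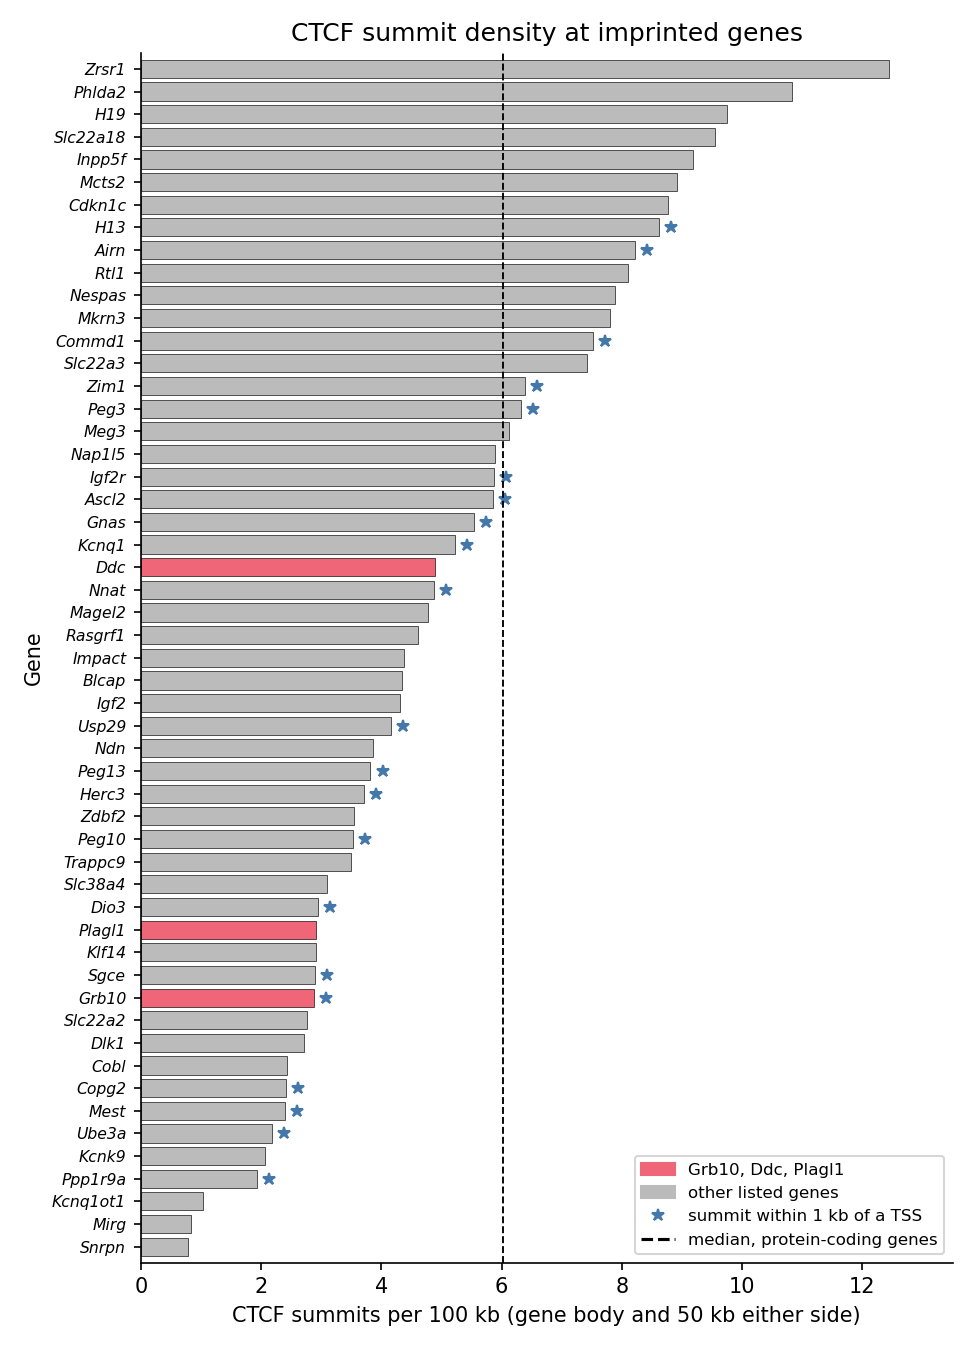
Density of called summits over each gene and 50 kb on either side, per 100 kb (x axis), for Grb10, Ddc and Plagl1 (red) and 50 other imprinted genes (grey), with a star where a summit lies within 1 kb of a start. The dashed line is the median of protein-coding genes, 6.03, and all 3 red bars end below it.

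The summits were unevenly spaced. The longest interval without one at Grb10-Ddc ran for 118888 bp, from Ddc intron 6 to Grb10 intron 2, and took in all Ddc starts of the basic annotation and the 3′ part of Grb10. Of the 90258 intervals between adjacent summits on the chromosomes used, 4.24% were as long. It held 3 candidates that did not pass, with signals up to 37.9 and no match. Beyond the internal start of Grb10 the next summit, at 12231580 with a signal of 57.2, was 204 kb away, an interval that 1.78% of all intervals reached. At Plagl1 the longest interval inside the window was 52568 bp and 12.6% were as long.

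The 50 kb limit set which summits counted at the edges. The outermost summits inside the windows were those at 11777016 (signal 64.2) and 12027947 (97.9) for Grb10-Ddc and at 13016704 (782) and 13127520 (315) for Plagl1. The nearest outside were at 11742945 (319), 21.2 kb beyond the window, and 12231580 (57.2), 143 kb beyond, for Grb10-Ddc. For Plagl1 they were at 13003981 (61.7), 6.52 kb beyond, and at 13193234 (224), 11.5 kb beyond and 66 bp from a start of Ltv1.

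A consensus match with at most 1 mismatch was found at 11 of the 20 summits (55%), beside 50.3% of all summits. In windows 1 kb away it was found at 1 of 20, beside 1.25% of all. The members differed among themselves: 1 of 6 Grb10 summits had a match, 5 of 9 in the Ddc window and 5 of 5 at Plagl1. These counts are small and the summits of a locus share 1 stretch of DNA, so they are given as a description. None of the 11 matches held a CpG inside the 12 letters, and 3.01% of the 45381 matches of all peaks did. The consensus itself allows no CpG, so a match could hold one only through its 1 mismatch. These low counts therefore follow largely from the search and describe no trait of the 2 loci. CpGs lay in the bases next to the core at several of the 11 matches, such as the coding summit of Plagl1, whose sequence is shown above.

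In the order of the chromosome, the Grb10-Ddc matches formed 5 adjacent pairs, of which 1 was convergent, 1 divergent and 3 pointed the same way. The convergent pair was formed by Ddc intron 12 and Ddc intron 7. At Plagl1, 4 matches were on the plus strand and 1 on the minus strand, and the only convergent pair of adjacent matches was the one around the promoter island. Whether any of these pairs form loops was not measured.

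CpG islands held 5 of the 20 summits (25%), beside 13.2% of all summits, and all 5 were at Grb10-Ddc. Besides the 3 in islands with a start, they were the summit at 11975096 in Grb10 intron 2, in a stretch of 221 bp, and the summit at 11788640 in Fignl1, in a stretch of 293 bp. As a whole the last had 47.4% G+C and an observed over expected CpG ratio of 0.488, both below the limits for an island. This could occur because islands were joined from 200 bp windows that each had to reach 50% and 0.6. The summits at the Fignl1 promoter came from overlapping peaks, so they are not fully separate entries in this count.

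The signals of the 20 summits ran from 46.7 to 841 with a median of 450.3, beside a median of 165 over all peaks. The median was 416 at Grb10-Ddc and 666 at Plagl1, at percentiles 72.4 and 86.2 of all peaks. Grb10 itself had a median signal of 330. The median of the percentiles of its 6 summits was 56.4, which is not the percentile of a signal of 330. For comparison, the Plagl1 coding summit, at 315, stood at percentile 66.4. Both Grb10 medians fell in a gap, because 3 of its 6 summits were weak and 3 strong with none between 103 and 557. Plagl1 showed a similar division, with 1 summit at 94.7 and the others from 315 upward.

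The ratio between the replicates is a description only, because the IDR had already kept peaks on which they agree. The log2 ratio of replicate 2 over replicate 1, less the median of 0.09 over all peaks, ran from -0.27 at the Fignl1 promoter to 0.44 at the weakest Plagl1 summit. Its SD over the 20 summits was 0.19, beside 0.41 over all peaks that passed. Over the 19 peaks of the same windows that did not pass it was 0.64. These SDs are not like for like, because the spread depended on signal. Over all peaks that passed, the SD was 1.03 in the lowest decile of signal and 0.07 in decile 10. The 20 summits had a higher median signal than all peaks, and the 19 had low signals. Set against the SD of all peaks of similar signal (the same decile), 6 of the 20 ratios were beyond 1 SD and none beyond 2 SD, with the largest at 1.73 SD. The largest of these in SD units was the exact match in Fignl1, at 0.15 on the log2 scale. The internal Grb10 start had 0.42, or 1.22 SD. The shares of all peaks beyond 1 SD and 2 SD are not given here, so these counts have no background beside them. Over all peaks the ratios ran from -5.68 to 5.78, and such extremes widen an SD.

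**Figure D4:**
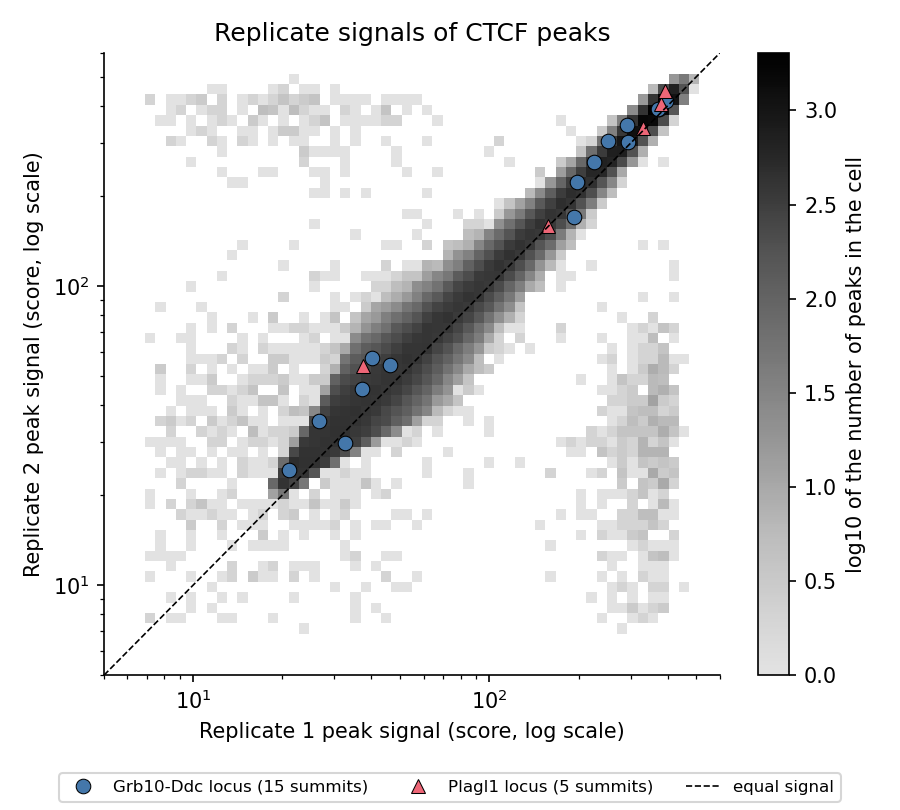
Peak signal of replicate 1 (x axis) against replicate 2 (y axis), both as deposited scores on log scales, for the 15 summits at Grb10-Ddc (circles) and the 5 at Plagl1 (triangles), over the number of all peaks per cell in grey. All 20 points lie in the dense band along the dashed line of equal signal, and the sparse cells away from it, where the replicates differ widely, hold none of them; all peaks shown had passed the IDR of 0.05.

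The ranked list held 39 peaks in the windows, of which 20 (51.3%) passed an IDR of 0.05, beside 44.3% of all ranked peaks, and 17 (43.6%) passed 0.01, beside 39.6%. At Grb10-Ddc 15 of 24 passed, and at Plagl1 5 of 15. The 19 that did not pass had signals of 15.8 to 70.4, and 6 of them had a match. The share with a match over all ranked peaks that did not pass is not given here, so this count has no background beside it. The strongest of the 19, at 11791440 in Fignl1, had 25.6 in replicate 1 and 42.0 in replicate 2. Signals thus overlapped between the groups: the weakest summit that passed, in Ddc intron 6, had 46.7, with its replicates closer together.

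In lists made from 1 replicate alone, a summit within 100 bp was found for 15 of the 20 in replicate 1 and 16 in replicate 2, beside 79% and 79.5% of all summits. In the list from pooled reads it was found for 16, beside 77%. The summits at 11777016, 11854709 and 12024060 were in none of these 3 lists and did not pass an IDR of 0.01. The second Fignl1 promoter summit was missing from both single-replicate lists, and the weakest Plagl1 summit from the lists of replicate 1 and of pooled reads. Each of these 5 had a signal below 100. The summit at the internal Grb10 start, at 97.9, was also below 100 and was in all these lists. So were the Grb10 island summit, the Ddc summits in introns 12 and 7 and the Plagl1 summits on both sides of the promoter island.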

How the data were processed

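CTCF ChIP-seq peaks from 4 libraries in 2 replicates were used as deposited by the authors, who made lists from each replicate, from the pooled reads and from the comparison of both replicates. The peak signal and the IDR score are deposited scores, the first of a scale that is not stated and the second with a maximum of 1000. The global IDR is deposited as -log10 values. The build is mm10 per the labels, and chromosome lengths of GRCm38 fit the coordinates. The names of the aligner and the peak caller were not given in the sources used here. Read depth is unknown, so no counting precision could be given.

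Summits of the between-replicate list (IDR 0.05, chromosomes 1 to 19 and X) were placed in GENCODE M21 genes. Positions are 1-based. Replicate signals came from the ranked list, whose first input matched peaks of replicate 1 (78.4%) and none of replicate 2, and the second the reverse (80.3%). The core consensus was searched within 50 bp, CpG islands were joined from 200 bp windows with at least 50% G+C and a CpG ratio of 0.6, and promoter windows were taken from RefSeq. Named by rule were the members, protein-coding and long noncoding genes with a start in their windows, and the 3 listed imprinted genes closest in density to each. Cobl, Sf3b5, Ltv1, the summits named at the edges and those among the weak ones were chosen after their values were seen. The members and lists were chosen with earlier results of these data known. No test was run. The code was tested on simulated data and used Python 3.11.15, numpy 2.4.6, pandas 2.3.3 and matplotlib 3.10.9. Alternatives were other lists, flanks, distances, windows, mismatches and annotations.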

Additional observations from a re-analysis of the deposited data

How the results depend on the processing

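Of the values recomputed under alternatives, 66 stayed within the spread or within 1.5 times the count and 16 did not. The count of Plagl1 summits was 3 with flanks of 10 kb and 9 with 100 kb, against 5. Promoter summits within 5 kb of a start numbered 5 at Grb10 and 1 at Plagl1, against 1 and 0, and 2 at Grb10 in the comprehensive annotation. The median percentile at Grb10-Ddc was 75.37 at an IDR of 0.01 against 72.42, and at Plagl1 84.6 at an IDR of 0.01 and 89.92 in the pooled-read list against 86.22. In lists of single replicates it ran from 72.26 to 79.08 at Grb10-Ddc and from 83.59 to 89.12 at Plagl1. Matches with no mismatch numbered 3 at Grb10-Ddc and 2 at Plagl1, against 6 and 5, and those with at most 2 mismatches 11 at Grb10-Ddc. In windows 1 kb away, matches with at most 1 mismatch numbered 1 and 0. That setting gives a background for the search and is not another way to process the data, though both values are counted among the 16. The causes of these moves were not tested, beyond what each alternative changes by its construction. No paired analysis was possible because the results come from no test and the replicates belong to 1 condition. Without read depths, a site that is not called may be unbound or below detection, and with 1 signal per replicate no error beyond the difference of the 2 pools could be given.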
